A study of Mus musculus with 6 samples.

Results

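The genes described here encode the extracellular side of Wnt signalling, namely the Wnt ligands, the genes that secrete them, their receptors and their secreted inhibitors. They were taken by symbol alone: every gene named Wnt, Fzd, Sfrp, Dkk or Rspo with a number, together with Lrp5, Lrp6, Lgr4, Lgr6, Ror1, Ror2, Ryk, Porcn, Wls, Wif1 and Notum. This gave 53 genes of 19938 measured by a probe set with exactly 1 gene symbol, and 54 of 21789 such probe sets. Where a gene had several probe sets the brightest on average was taken, which mattered only for Wnt4. One of the 53, Fzd10os, is annotated as a noncoding transcript from the opposite strand at Fzd10 and is no receptor.

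The RNA came from mouse bone marrow B cells carrying the BCR-ABL1 oncogene, with or without gamma-catenin, a relative of beta-catenin encoded by Jup. Irradiated or reconstituted C57BL/6 hosts carried CD45.1, and the cells studied carried CD45.2. The donors were fetal livers of Jup-/- (KO) or Jup+/+ (WT) embryos, from which chimeric mice were made at least 8 weeks before their total marrow was transduced. Both groups therefore share a retrovirus carrying BCR-ABL1 with GFP, a lethally irradiated recipient and sorting of GFP+ B220+ BP-1+ CD45.2+ cells at day 21. Each group has 3 samples that the labels call biological replicates, hybridised to 1 array each. The labels used here give neither the number of mice per sample nor the part of Jup that the allele lacks.

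Wnt proteins carry a lipid added by the acyltransferase Porcn and are escorted to the cell surface by Wls. They bind Frizzled receptors together with the co-receptors Lrp5 or Lrp6, which stabilises beta-catenin, or act through Ror1, Ror2 and Ryk in branches that do not need it. R-spondins, bound by LGR receptors, keep Frizzled proteins on the membrane by removing the ubiquitin ligases Znrf3 and Rnf43. Sfrp proteins, Wif1 and the deacylase Notum act on the ligand, and Dkk1, Dkk2 and Dkk4 bind the co-receptors. In marrow, Wnt signals are known to affect the growth of early B cell progenitors.

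Values are deposited log2 signals, so a difference of 1 is a doubling, and differences are KO minus WT with the moderated standard error (SE) of limma, a linear model fitted across all probe sets. A call required a Benjamini-Hochberg adjusted p under 0.05 over the 21789 probe sets. Array medians lay between 7.53 and 7.61, and precision is limited by having 6 arrays. Pre-B markers were bright in all samples: the 11 measured of 12, among them Cd79a, Igll1 and Ebf1, lay between 10.76 and 14.02 in every array. Their differences ran from -0.23 (Enpep) to 0.50 (Rag1), with a lowest limma adjusted p of 0.379. Jup was at 7.04 to 7.27 in KO and 7.62 to 8.51 in WT, without overlap. Its difference was -0.93 (SE 0.20, limma adjusted p = 0.171), so Jup itself was not called. One array differed in donor sex: Xist was at 6.20 in WT replicate 2 and at 13.03 to 13.38 in the other arrays. Granulocyte markers were higher in the sorted KO cells, with a list mean of 8.99 to 9.16 in KO and 7.90 to 8.46 in WT over 10 genes. The erythroid list mean was also higher, at 6.86 to 6.92 in KO and 6.57 to 6.70 in WT. It rests on the 3 measured of 6 genes, of which 2 were higher and 1 lower in KO. Car1 gave 0.74 (limma adjusted p = 0.0307), Klf1 0.08 and Epor -0.12, so the higher mean came mainly from Car1. The part of either cell type in the differences below was not tested. In bulk RNA, more cells of a type and more RNA per cell cannot be told apart.

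No Wnt ligand, receptor or inhibitor passed the threshold: 0 of 53 were called higher in KO and 0 lower in limma, where 0.0505% of all probe sets were called higher and 0.0688% lower. The largest difference among them with separate groups was that of the receptor gene Fzd6, 1.64-fold lower in KO. Lgr4, an R-spondin receptor, had a larger mean difference but split the KO arrays. At an unadjusted p under 0.05, 2 members were lower (Fzd6 and Wnt3) and 0 higher, against 4.73% and 4.48% of all probe sets. The KO arrays lay wholly below the WT arrays for 4 members (Fzd4, Fzd6, Rspo2 and Wnt7b) and wholly above for 1 (Fzd5), against 8.08% and 5.94% of all probe sets. For 50 of the 53 the 95% interval of the difference lay between -0.5 and 0.5, the exceptions being Fzd6, Lgr4 and Wnt3. These data thus bound most differences in signal, not in transcript number, without showing that the groups are alike.

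**Figure D1:**
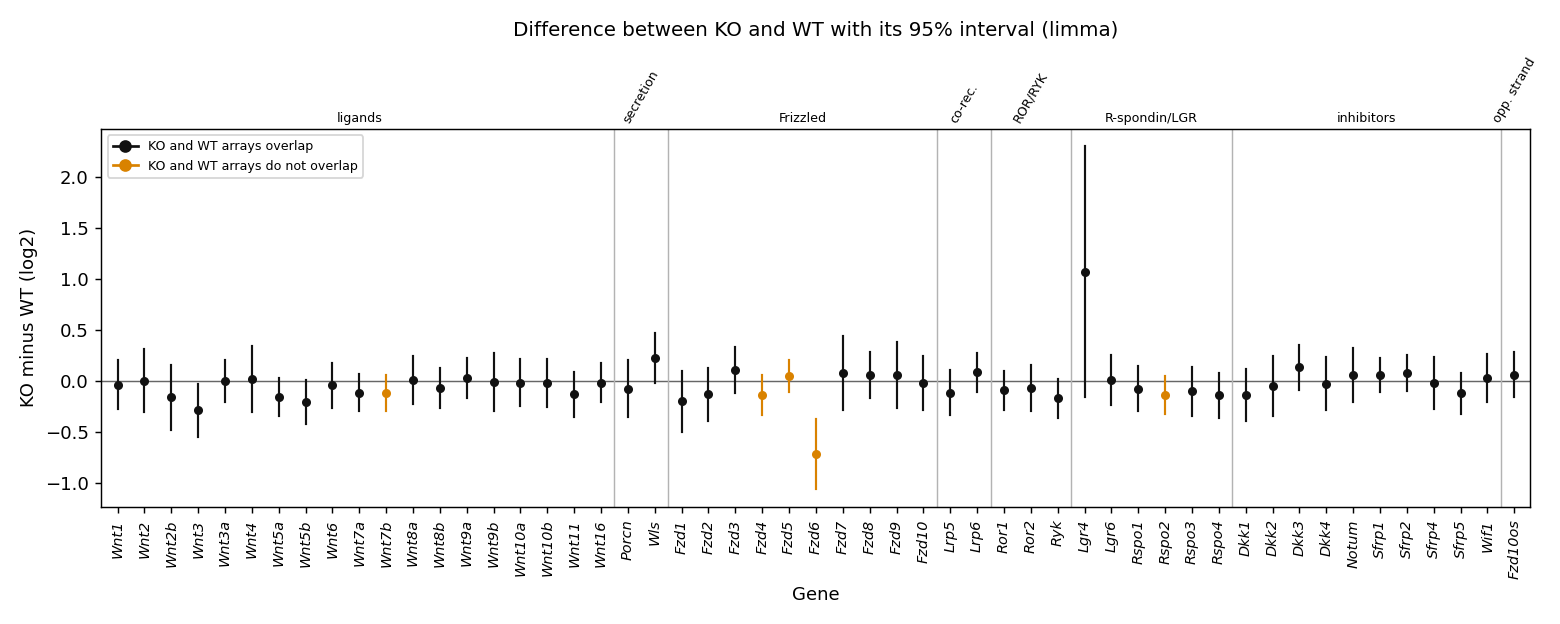
KO minus WT difference in log2 signal for each of the 53 genes (points) with its 95% interval from limma (lines), grouped by role; orange marks genes whose KO and WT arrays do not overlap. Fzd6 stands at -0.72 and Lgr4 at 1.07 with an interval from -0.16 to 2.30, while the other 51 genes lie between -0.28 and 0.23.

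Many members were dim. As a rough guide to background, the 1210 probe sets of olfactory and vomeronasal receptors, genes of sensory neurons, had a median level of 4.81 and a 95th percentile of 6.66. By their means, 24 of the 53 members lay at or below that percentile and 29 above it. Probe sets differ in brightness for reasons other than abundance, so this orders no members and does not show that a gene is silent. RMA also compresses differences of dim transcripts. Of the 24 members at or below that percentile, 22 had a 95% interval between -0.5 and 0.5, which bounds their signal only. Only Wls, Fzd6, Lrp6, Lrp5, Wnt4 and Ror2 had a mean above 8, a mark chosen after the values were seen. The group spanned 5.37 to 11.29 over all arrays.

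**Figure D2:**
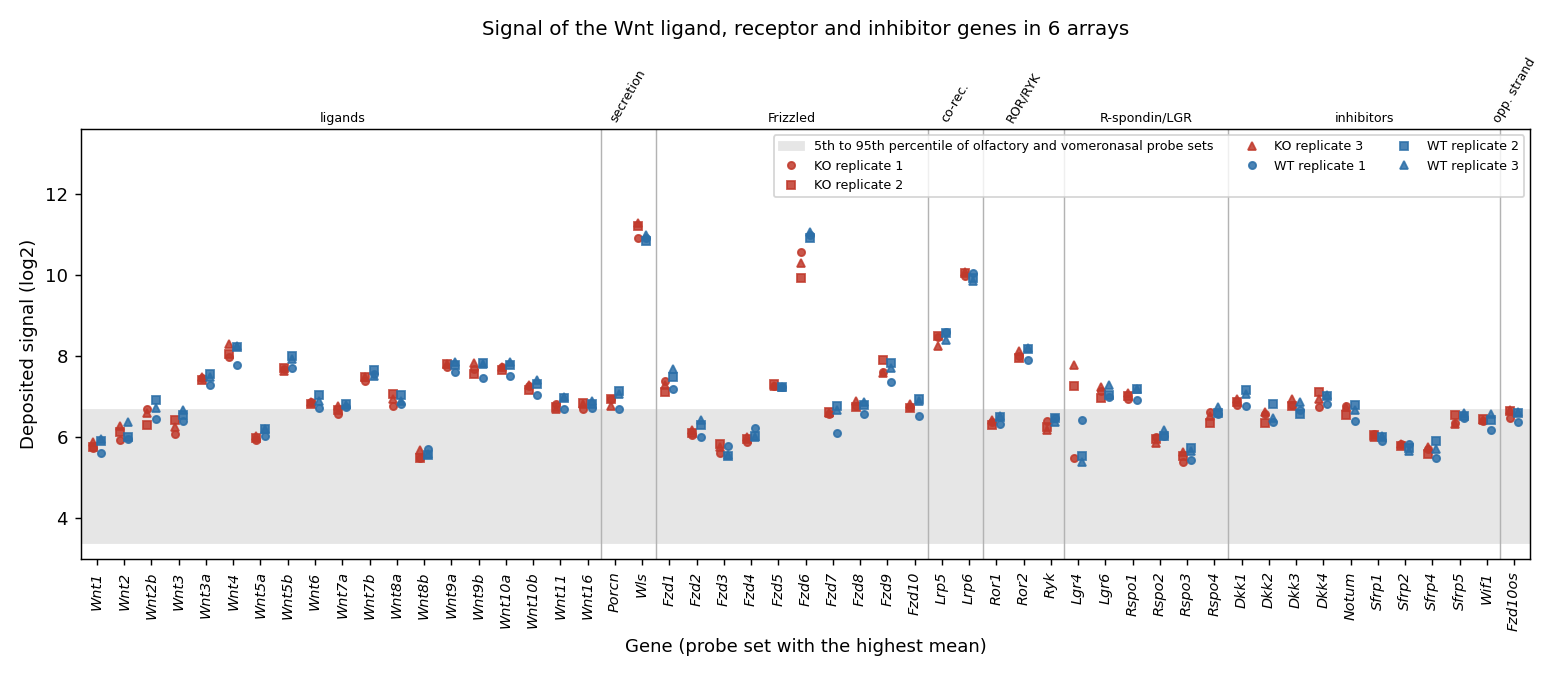
Log2 signal of the 53 genes in each of the 6 arrays (red KO, blue WT, symbols for replicates), with the 5th to 95th percentile of olfactory and vomeronasal probe sets shaded (3.39 to 6.66). Wls, Fzd6 and Lrp6 lie far above the shaded band, and 24 genes have means within or below the shaded band.

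The region just upstream of the gene start is shown for 3 members: Lgr4, which varied most between arrays, Wls, a secretion gene well above the background reference, and Wnt3, the ligand with the lowest p. Each sequence holds the 250 bases before the start from RefSeq (build GRCm38.p6, plus strand), 5′ to 3′, and capitals mark the motifs named next.
Lgr4, chr2:109917397-109917646: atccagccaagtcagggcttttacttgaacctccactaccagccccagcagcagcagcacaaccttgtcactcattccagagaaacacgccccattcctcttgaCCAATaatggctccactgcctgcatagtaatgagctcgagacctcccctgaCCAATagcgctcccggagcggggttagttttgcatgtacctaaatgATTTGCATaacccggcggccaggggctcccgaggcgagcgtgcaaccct
Wls, chr3:159839400-159839649: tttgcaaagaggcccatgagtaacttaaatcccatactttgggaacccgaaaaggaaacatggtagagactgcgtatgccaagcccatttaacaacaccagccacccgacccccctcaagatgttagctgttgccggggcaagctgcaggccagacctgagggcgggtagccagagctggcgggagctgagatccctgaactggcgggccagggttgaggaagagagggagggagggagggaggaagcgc
Wnt3, chr11:103773925-103774174: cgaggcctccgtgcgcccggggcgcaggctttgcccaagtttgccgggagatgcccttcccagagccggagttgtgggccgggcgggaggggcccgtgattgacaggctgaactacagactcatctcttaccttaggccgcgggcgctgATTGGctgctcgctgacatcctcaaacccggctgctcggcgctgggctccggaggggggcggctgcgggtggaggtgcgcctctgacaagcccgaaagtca
The motifs searched on both strands were TCAAAG (the core bound by TCF and LEF factors), ATTTGCAT (the octamer of POU factors, used in B cell genes), the EBF motif and CCAAT. The octamer and CCAAT were added after the sequences had been read, and none of the 4 motifs overlaps another in these windows.

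The Lgr4 window held 1 octamer, 49 bases before the start, and 2 CCAAT boxes. Wnt3 held 1 CCAAT box, which appears above on the other strand as ATTGG, and Wls held none of the 4. Of 32851 windows of the same length, 1.6% held the octamer, 33.8% CCAAT, 13.8% the TCF and LEF core and 0.779% the EBF motif. A window was available for 34 of the 53 members. Among these, 5 held the TCF and LEF core, 2 the octamer, 11 CCAAT and 0 the EBF motif. A member was counted if any of its windows held the motif, whereas the shares above are per window. Wnt11 and Wnt5b, the 2 members with more than 1 window, are among the 5. A match of letters is not a bound site.

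The ligands came first in the pathway's order. All 19 mouse Wnt genes were measured, with means from 5.58 to 8.10, and 6 were at or below the background reference's 95th percentile. KO means were lower for 15 and higher for 4, with a median difference of -0.03 against -0.02 over all probe sets. Differences ran from -0.28 to 0.03, so no ligand differed by as much as Fzd6.

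Wnt3, a ligand of the beta-catenin branch, was at 6.07, 6.43 and 6.25 in KO replicates 1, 2 and 3 and at 6.40, 6.54 and 6.67 in the WT replicates. Its lowest WT array lay just under the highest KO array, and both groups were near the background reference. The difference was -0.28 (SE 0.11), with an unadjusted p of 0.0343 and a limma adjusted p of 0.489. Wnt3 lies on the same chromosome as Jup, chromosome 11, with 118 protein-coding genes between them in RefSeq. Wnt9b, the gene next to Wnt3, gave -0.01 and Fzd2, nearer to Jup with 88 genes between, gave -0.13.

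Wnt5b, a ligand mostly tied to the beta-catenin-independent branches, was at 7.67, 7.70 and 7.64 in KO and 7.70, 8.01 and 7.92 in WT. WT replicate 1 sat level with the KO arrays while WT replicates 2 and 3 were higher. The difference was -0.21 (SE 0.09, limma adjusted p = 0.564). Its paralogue Wnt5a gave -0.15 at a dim level of 5.98 in KO and 6.14 in WT. Wnt7b was lower by -0.12 (SE 0.08) without overlap, at 7.39 to 7.49 in KO and 7.50 to 7.65 in WT. Wnt9a, at 0.03 (SE 0.09), and Wnt4 had the highest moderated t of the ligands. The brighter probe set of Wnt4 gave 0.02 (SE 0.14) and the dimmer one -0.04 (SE 0.15), so its direction is not settled.

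The ligand directions moved with which WT array was left out. Without WT replicate 1 all 19 ligands had lower KO means, with a median of -0.13, and without WT replicate 2 or WT replicate 3 only 10 did. The members as a whole moved likewise: 34 of 53 were lower with all arrays (64.2%, against 55.8% of all probe sets), 45 once WT replicate 1 was left out, and 26 or 27 once WT replicate 2 or WT replicate 3 was. Without WT replicate 1, 9 members were lower at an unadjusted p under 0.05, where 8.68% of all probe sets were, and 25 lay wholly below WT, where 22.0% of all probe sets did. None of the 53 passed the adjusted threshold there either (lowest limma adjusted p = 0.194, for Wnt5b).

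WT replicate 1 was the lowest of the 6 arrays for 24 of the 53 members and the lowest WT array for 40. Its members deviated from their means over all arrays by a median of -0.12, against 0.11 and 0.10 in WT replicates 2 and 3 and -0.05 to 0.03 in KO. The olfactory and vomeronasal probe sets deviated by -0.03 in WT replicate 1, 0.04 and 0.01 in WT replicates 2 and 3, and -0.04, 0.02 and -0.01 in KO replicates 1, 2 and 3, so KO replicate 1 was lowest there. All probe sets together had medians between -0.01 and 0.02. Endothelial, T cell, erythroid, megakaryocytic and granulocyte list means were all lowest in WT replicate 1, whereas the pre-B mean was 12.62 there against 12.55 and 12.56 in WT replicates 2 and 3. Lowest in WT replicate 1 too were stromal markers, with a mean over 9 genes of 6.19 against 6.39 and 6.41 in the other WT arrays and 6.32 to 6.34 in KO. Of these 9, among them Cxcl12, Lepr and Kitl, 6 were at or below the background reference's 95th percentile. So were 3 of 6 endothelial, 3 of 6 T cell, 2 of 4 megakaryocytic, 1 of 3 erythroid and 0 of 10 granulocyte markers. Whether RNA of these cell types had a part in the ligand directions was not tested.

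**Figure D3:**
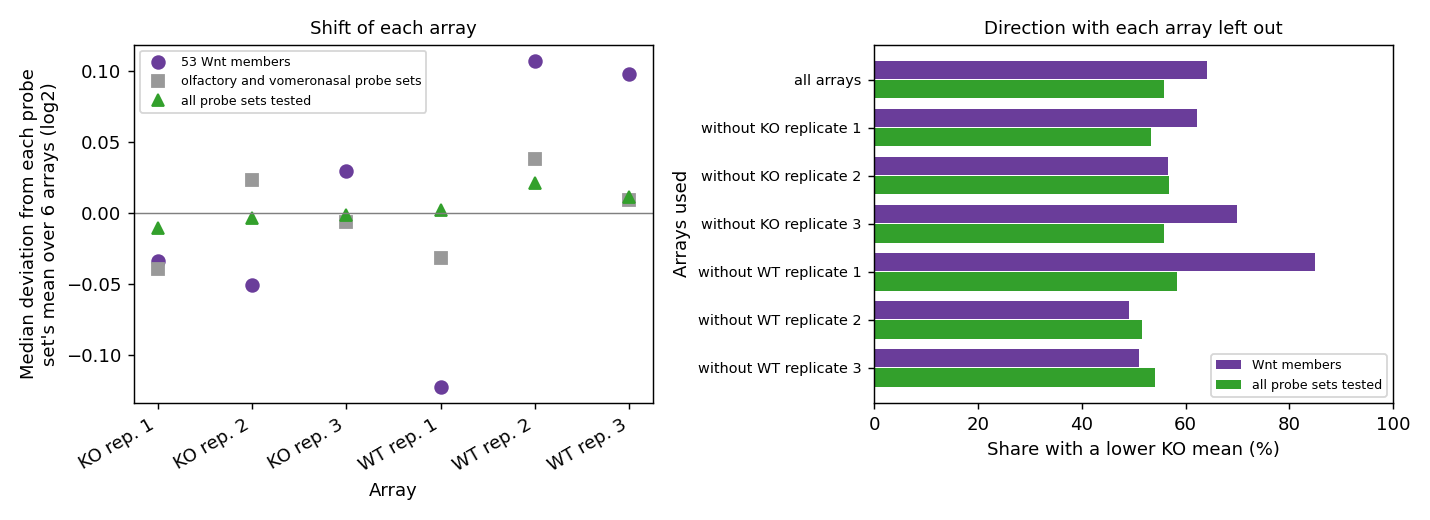
Left, median deviation in log2 signal of each array from each probe set's mean over the 6 arrays, for the 53 members, the olfactory and vomeronasal probe sets and all probe sets; right, share of members and of all probe sets with a lower KO mean (%), with all arrays and with each left out. WT replicate 1 lies lowest for the members at -0.12, and without it 84.9% of members have a lower KO mean.

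Of the secretion genes, Wls was far brighter than the background reference and Porcn just above it. Wls, the carrier that takes Wnt proteins to the cell surface, was at 10.92, 11.21 and 11.29 in KO and 10.90, 10.84 and 10.99 in WT. KO replicates 2 and 3 were above all WT arrays, and KO replicate 1 lay among them. The difference was 0.23 (SE 0.11, 95% interval -0.02 to 0.47, limma adjusted p = 0.588). Without KO replicate 1 it was 0.34, still short of the threshold (limma adjusted p = 0.240).

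Porcn, the acyltransferase that acts before Wls and is encoded on the X chromosome, gave -0.07 (SE 0.12). Its highest array was WT replicate 2, the one with low Xist, at 7.13. WT replicate 3, with high Xist, was at 7.05, and WT replicate 1 was the lowest, at 6.70. Without WT replicate 2 the difference was 0.01, and without WT replicate 1 it was -0.21. WT replicate 2 was also the highest array for 17 of the 53 members. The part of donor sex in the Porcn values was not tested.

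All 10 Frizzled receptors were measured, 4 of them at or below the background reference's 95th percentile, and 5 had higher and 5 lower KO means.

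Fzd6, a receptor best known for planar polarity, such as the orientation of hairs, was at 10.58, 9.92 and 10.29 in KO replicates 1, 2 and 3. In WT it was at 10.99, 10.90 and 11.05. All KO arrays lay below all WT arrays, and the KO arrays were spread more widely, with an SD of 0.33 (n = 3) against 0.07 (n = 3) in WT. The difference was -0.72 (SE 0.15, 95% interval -1.06 to -0.37), with an unadjusted p of 0.00126 that missed the threshold after adjustment (limma adjusted p = 0.168). Over 14 alternatives, each changing the scaling, filter, model or arrays, it stayed lower in KO, from -0.87 to -0.55, with adjusted p from 0.0524 to 0.425. The difference was largest, and its adjusted p lowest, without KO replicate 1; the difference was smallest without KO replicate 2 and the adjusted p highest without WT replicate 3.

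The other 9 Frizzled genes lay between -0.20 and 0.10, with intervals from -0.50 to 0.45 at the widest. Fzd4, a receptor that also binds the protein Norrin, was at 5.89, 5.96 and 6.00 in KO and 6.23, 6.03 and 6.01 in WT. The groups did not overlap, but the gap was small and the level dim, and the difference was -0.14 (SE 0.09). Fzd5 was at 7.26 to 7.30 in KO and 7.22 in each WT array, a separation of only 0.05 (SE 0.07). Fzd3, dim in all arrays, gave 0.10 (SE 0.10). Fzd9, which is known from knockout mice to matter for B cell development, was at 7.60, 7.90 and 7.58 in KO and 7.36, 7.84 and 7.71 in WT, so its groups overlapped. Fzd10os gave 0.06 (SE 0.10), and Fzd10 itself -0.02.

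Both co-receptors were well above the background reference and close between the groups. Lrp6 was at 9.97, 10.05 and 10.08 in KO and 10.05, 9.94 and 9.84 in WT, a difference of 0.09 (SE 0.08). Lrp5 was at 8.47, 8.49 and 8.25 in KO and 8.59, 8.57 and 8.40 in WT, a difference of -0.11 (SE 0.10). Their intervals together spanned -0.34 to 0.27.

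Among the receptors that act without Lrp5 or Lrp6, all 3 had slightly lower KO means, with overlapping groups. Ryk, a receptor without an active kinase, was at 6.39, 6.25 and 6.17 in KO and 6.47, 6.47 and 6.38 in WT, a difference of -0.17 (SE 0.08, limma adjusted p = 0.612). Ror1, a receptor found on human B cell leukaemias, was dim at 6.30 to 6.41 in KO and 6.33 to 6.53 in WT (-0.09, SE 0.08). Ror2 was at 7.95 to 8.12 and 7.90 to 8.20 (-0.07, SE 0.10).

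Lgr4 had the widest spread of all members, with an SD of 1.03 over the 6 arrays where the median member had 0.13. It was at 5.48, 7.27 and 7.79 in KO replicates 1, 2 and 3 and at 6.42, 5.53 and 5.39 in the WT replicates. KO replicates 2 and 3 were above every WT array and above the background reference's 95th percentile, whereas KO replicate 1 was as low as WT replicates 2 and 3. The mean difference of 1.07 (SE 0.54) did not pass (limma adjusted p = 0.616). Without KO replicate 1 it was 1.75 (limma adjusted p = 0.0956), and without KO replicate 3 it was 0.60 (limma adjusted p = 0.895). Granulocyte marker list means were 9.03, 8.99 and 9.16 in KO replicates 1, 2 and 3 and 7.90, 8.46 and 8.15 in the WT replicates, and their part in the Lgr4 values was not tested.

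**Figure D4:**
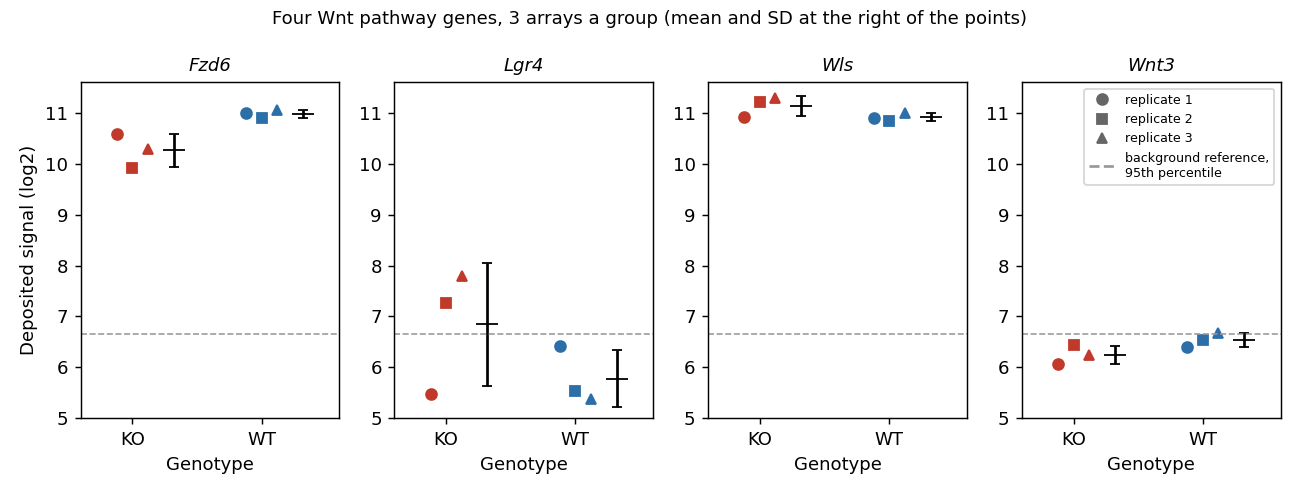
Log2 signal of Fzd6, Lgr4, Wls and Wnt3 in each KO (red) and WT (blue) array, with the group mean and SD (n = 3) beside the points and the background reference's 95th percentile (6.66) dashed. Fzd6 separates the groups, KO replicates 2 and 3 stand apart for Lgr4 at 7.27 and 7.79, and Wnt3 lies near the dashed line.

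Lgr5, the relative of Lgr4 whose symbol was not in the rule, was at 10.31, 11.14 and 10.66 in KO and 9.07, 9.36 and 8.68 in WT. It was high in all KO arrays, unlike Lgr4. Its difference of 1.67 (SE 0.23) was just outside the threshold (limma adjusted p = 0.0508). Lgr6 gave 0.01 (SE 0.11), with overlapping groups, and its sign turned under 6 of 14 alternatives, both scalings included.

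The R-spondins, the ligands of these receptors, all had slightly lower KO means. Rspo2 was at 6.00, 5.96 and 5.85 in KO and 6.03, 6.02 and 6.17 in WT, without overlap but with a gap smaller than the spread within either group. Its difference was -0.14 (SE 0.08) and that of Rspo4 -0.14 (SE 0.10). Rspo1 and Rspo3 gave -0.07 and -0.10. All 4 stayed lower with any single array left out, but their intervals with all arrays ran from -0.36 to 0.14, and 3 of them, all but Rspo1, were at or below the background reference's 95th percentile.

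The 10 secreted inhibitors showed no separation between the groups, and 5 were higher and 5 lower in KO, with differences from -0.13 to 0.14. Their means lay between 5.69 and 6.94, and 7 were at or below the background reference's 95th percentile. Dkk3, a Dkk family member whose action on Wnt receptors is less clear, was at 6.80, 6.77 and 6.93 in KO and 6.67, 6.57 and 6.86 in WT (0.14, SE 0.10). Dkk1, which blocks Lrp5 and Lrp6, was at 6.79, 6.86 and 6.93 in KO and 6.76, 7.16 and 7.06 in WT (-0.13, SE 0.11). In both, the groups overlapped. Sfrp5 gave -0.12 (SE 0.09) and Sfrp2 0.08 (SE 0.08), both decoy proteins that bind Wnt ligands. Notum, the deacylase, gave 0.06 and Wif1 0.03. The intervals of the 10 inhibitors reached from -0.39 to 0.36.

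The rest of the pathway was read from 4 lists covering other extracellular modulators, the cytoplasmic relay, nuclear factors and the planar polarity and calcium branch. Of 94 listed genes 93 were measured, and 0 passed in limma in either direction. Before adjustment 8 were higher and 4 lower at p under 0.05, where 4.48% and 4.73% of all probe sets were, and the median difference was 0.01. The lower count is near that background share. The lists were chosen with earlier results of these data known, so the higher count does not show an excess. The 12 genes are named below as a description. The modulators higher in KO were Lgr5 and Igfbp4, a binding protein for insulin-like growth factors that also inhibits Wnt receptors (0.90, SE 0.24), and Ndp, which encodes Norrin, the ligand of Fzd4, was lower (-0.25, SE 0.10) at a dim level.

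In the relay, the beta-catenin feedback inhibitor Axin2 gave 0.52 (SE 0.16) and the GSK3-binding protein Frat1 0.42 (SE 0.14), and Nkd2, which binds Dishevelled, gave -0.29 (SE 0.13). Igfbp4, Axin2 and Frat1 were each highest in KO replicate 2 and lower in KO replicate 1 than in the other KO arrays. Among nuclear factors, Tcf7l1, which mostly represses TCF targets, was at 8.22, 8.07 and 8.54 in KO and 9.07, 8.80 and 8.93 in WT. Those groups did not overlap (-0.65, SE 0.13, limma adjusted p = 0.147). Hbp1, a repressor that binds TCF factors, gave 0.38 (SE 0.11) and the beta-catenin antagonist Cby1 -0.23 (SE 0.10). In the last list the calcineurin subunit gene Ppp3ca gave 0.48 (SE 0.09), Prkca 0.28 (SE 0.10) and Mapk9 0.24 (SE 0.09). Beta-catenin itself, Ctnnb1, gave -0.04 (SE 0.08).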

How the data were processed

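RNA of 6 samples, 3 KO and 3 WT by their titles, was labelled with biotin and hybridised to 1-colour arrays, as the labels' protocols state. The authors deposited log2 values; per the submitters' processing notes these are RMA values from Affymetrix Expression Console 1.1, whose options, annotation and build are not given in the sources used here. RMA usually corrects background and equalises arrays, which removes shifts common to an array. The platform annotation names 23410 of 35556 rows, 1621 of them with several symbols; the other 21789 probe sets were tested. All 53 members matched RefSeq by gene ID and kept their symbols.

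KO was compared with WT by limma 3.58.1 in R 4.3.3 (lmFit, eBayes with a constant prior, no covariate, no filter), with Benjamini-Hochberg adjustment over all 21789 probe sets. The fit was tested on simulated data. Depth does not apply to arrays. The members, lists, motifs and rules were chosen with earlier results of these data known. Named with values were members with an unadjusted p under 0.05 and the 2 highest and 2 lowest moderated t of each role, and pathway genes with an unadjusted p under 0.05; other members named beyond the rule were chosen after their values were seen. Of the marker lists, endothelial, T cell, erythroid and megakaryocytic means ran from 6.99 to 7.14, 6.54 to 6.75, 6.86 to 6.92 and 6.04 to 6.16 in KO and from 6.89 to 7.23, 6.50 to 6.82, 6.57 to 6.70 and 5.90 to 6.21 in WT. Alternatives were other scalings, filters, rows, probe set rules, priors and weights, the replicate number as a block, and each array left out.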

Additional observations from a re-analysis of the deposited data

How the results depend on the processing

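No member reached an adjusted p under 0.05 under any alternative run, and none an adjusted p under 0.1 with all arrays and the main model. Of the named members, Fzd6 was under 0.1 with array weights (limma adjusted p = 0.0796) and without KO replicate 1, and Lgr4 without KO replicate 1. The counts at an unadjusted p under 0.05 and of separate groups moved more. With a further quantile normalization 4 members were lower at that p and 0 lay wholly above WT, the latter also after centring on the array median. Dropping probe sets dimmer on average than the 40th percentile kept 23 members, of which 1 was lower at that p and 2 lay wholly below WT. A trended and robust prior gave 1 member higher at that p, and array weights gave 2 higher and 9 lower. The weights were 0.34 for WT replicate 1, 2.12 for WT replicate 2 and 0.94 to 1.26 for the other arrays. With single arrays left out, members higher at that p ranged from 0 to 2 and lower from 1 to 9, those wholly above WT from 1 to 4 and wholly below from 4 to 25, and the members' median difference from -0.12 to 0.0097. Fewer arrays alone make separate groups more frequent. Over all probe sets, calls (11 higher and 15 lower) were 26 and 29 after centring, 17 and 23 with the trended prior, 93 and 57 with array weights, and 25 and 33 at an adjusted p under 0.1, with 59 lower over all rows of the table; with single arrays left out they ranged from 1 to 41 higher and from 3 to 41 lower. Leaving out Fzd10os, chosen after seeing the data, changed none of these member counts.

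With the replicate number as a block, 2 members were lower and 0 higher at an unadjusted p under 0.05, and 8 probe sets were called higher and 11 lower. Same-numbered samples also share a leading number in their descriptions, whose meaning the labels do not give. Their deviations correlated at 0.104, -0.004 and 0.275, and KO replicate 2 correlated best with WT replicate 1, so a pairing was not established and is not shown to be absent.

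Of 324 values of 24 named members under alternatives, 14 reversed sign, in 5 members with small differences. Lgr6 gave -0.00037 with quantile normalization, -0.0026 after centring and -0.052 to 0.098 with single arrays left out. Wnt4 gave -0.0076 with quantile normalization, -0.0084 as the mean of its probe sets, -0.072 with array weights and -0.13 to 0.097 with single arrays left out. With single arrays left out, Wnt9a ran from -0.036 to 0.085 and Fzd10os from -0.011 to 0.13, both lowest without WT replicate 1, and Porcn from -0.21 to 0.012, highest without WT replicate 2. The cause was not tested.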
